A study of Mus musculus with 81 samples.

Results

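Interleukin-2 and the chains of its receptor were followed as 4 genes, Il2, Il2ra, Il2rb and Il2rg, through every RNA-seq experiment of a study of Notch signalling in a mouse hybridoma T cell line. The genes were chosen by name, with earlier results of these data known, and all 4 were found among the 24391 gene symbols of the count table. A hybridoma T cell line is made by fusing T cells to a tumour line, and it grows without stimulation. RBPJ is the DNA-binding protein through which Notch acts on genes. The 5 experiments used here, with 41 libraries in 16 groups, depleted RBPJ, supplied the intracellular domain of the NOTCH1 receptor (NICD1) in different forms, supplied a protein that binds RBPJ or inhibited the release of Notch.

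In the depletion experiment, a control line was set against lines 2-12 and 2-14, which were edited at Rbpj with CRISPR/Cas9 (2 samples each). Whether either line grew from 1 cell is not given in the sources used here. In the NICD1-ER experiment, every group carried the NICD1-ER fusion, whose activity 4-hydroxytamoxifen (4-OHT) switches on. Cells received 1 uM of 4-OHT for 4, 8 or 24 h, and the only control among the libraries used here was ethanol for 24 h. In the KYOT2 experiment, cells carried GFP alone, GFP-KYOT2 wild type or the GFP-KYOT2 WWAA mutant, described in the labels as defective in binding RBPJ (3 samples each). KYOT2 is a LIM-domain protein that binds RBPJ. In the inhibitor experiment, cells received 20 ug/ml of the gamma-secretase inhibitor (GSI) DAPT for 24 h or its solvent DMSO (2 samples each). Gamma-secretase is the protease that releases the Notch intracellular domain. In the BioNICD1 experiment, the control line and RBPJ-depleted cells each carried wild-type BioNICD1 or the Biocontrol vector (3 samples each). Which depleted line was used there is not given in the sources used here.

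Interleukin-2 (IL-2) is the cytokine that activated T cells secrete and that drives their own division. Its receptor has an alpha chain (Il2ra, CD25), which captures the cytokine and makes the receptor bind tightly, and a beta chain (Il2rb, CD122) and the common gamma chain (Il2rg, CD132), whose tails carry the signal. The beta chain also serves the IL-15 receptor, and the gamma chain serves the receptors of IL-4, IL-7, IL-9, IL-15 and IL-21. The tails bind the kinases JAK1 and JAK3, which switch on STAT5, and STAT5 in turn raises Il2ra, so the alpha chain is widely read as a mark of T cell activation. Il2ra is also high in regulatory T cells and in immature thymocytes, where Notch is active.

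The stretch of 250 bases before the start site was taken from RefSeq (GRCm38.p6) for the 3 of the 4 genes that matched an entry, Il2, Il2ra and Il2rg. These are shown because the genes sit at the ends of the range described below: the ligand that was hardly detected, the chain that varied the most and the chain that varied the least. Each is written 5′ to 3′ on the strand of its gene.
Il2 (chr3:37125955-37126204, minus strand): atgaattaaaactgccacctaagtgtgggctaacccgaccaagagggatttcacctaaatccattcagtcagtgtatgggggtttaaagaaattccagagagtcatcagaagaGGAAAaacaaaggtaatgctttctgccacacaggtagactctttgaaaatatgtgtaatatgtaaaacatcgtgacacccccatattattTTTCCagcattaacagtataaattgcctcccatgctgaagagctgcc
Il2ra (chr2:11642542-11642791, plus strand): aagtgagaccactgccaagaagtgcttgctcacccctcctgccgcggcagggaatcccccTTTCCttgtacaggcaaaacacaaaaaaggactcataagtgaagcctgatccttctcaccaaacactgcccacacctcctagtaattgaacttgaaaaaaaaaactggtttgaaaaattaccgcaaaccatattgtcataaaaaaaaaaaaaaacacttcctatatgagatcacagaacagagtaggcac
Il2rg (chrX:101268256-101268505, minus strand): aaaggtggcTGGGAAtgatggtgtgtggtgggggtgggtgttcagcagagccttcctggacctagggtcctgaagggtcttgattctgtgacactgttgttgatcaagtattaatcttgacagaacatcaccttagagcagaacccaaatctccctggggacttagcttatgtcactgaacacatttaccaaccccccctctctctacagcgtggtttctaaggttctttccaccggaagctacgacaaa
In the Il2rg stretch the capitals mark the core letters of the RBPJ motif, TGGGAA, which lie 241 to 236 bases before the start site. On either strand these letters were in 21.6% of the 32851 windows of this length in the RefSeq table. Neither the Il2 nor the Il2ra stretch holds them, and the longer form GTGGGAA, which 5.42% of windows hold, is in none of the 3. In the Il2 and Il2ra stretches the capitals mark GGAAA or its reverse complement TTTCC, the core letters bound by NFAT, the factor that T cell receptor signals bring to the Il2 promoter. This motif was picked after the sequences had been read, and 55.6% of windows hold it. It lies 137 to 133 and 47 to 43 bases before the start site of Il2, and 190 to 186 bases before that of Il2ra. The Il2rg stretch also holds TTTCC, at 23 to 19 bases before the start site and in lower case. A match of letters is a description of these windows and not a measured binding site.

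Total counts per library ran from 2377028 to 5998832 in the depletion experiment and from 4325641 to 14244209 in the others. Rbpj, the targeted gene, was at 133 and 182 counts per 1000000 (CPM) in the control line, at 31.4 and 44.2 CPM in line 2-12 and at 41.8 and 59.6 CPM in line 2-14. In the BioNICD1 experiment Rbpj lay between 83.9 and 94.1 CPM in the 6 control samples and between 18.7 and 27.4 CPM in the 6 depleted samples, so its transcript was lower but present, and RNA does not show the protein. Of 9 T cell markers, 8 were found in every library and Cd5 was at 0 to 2.93 CPM. Among the B cell markers, Ms4a1 was at 0 in every library. Of the regulatory T cell markers, Foxp3 was at 5.61 to 27.7 CPM, while Ctla4 did not exceed 0.290 CPM and Ikzf2 did not exceed 0.599 CPM. When libraries of a group were compared in pairs, 2 depleted libraries stood apart from the others of their groups across the table, replicate 3 with Biocontrol and replicate 1 with BioNICD1, and the results for the receptor chains that rest on them, and the list counts that change, are given with and without them. In the NICD1-ER experiment replicates 1 and 2 at 4 h differed by less than the sampling noise, and likewise at 8 h. Each such pair was counted as 1 sample, which leaves 2 samples in each group there. Libraries treated with GSI, and those given 4-OHT for 24 h, were also closer to each other than sampling noise. Neither group has a further library used here, and their libraries stayed separate samples. P-values that use these groups may therefore be too small. The labels do not say whether replicates came from separate cultures, so p-values measure the spread between these samples, which may be technical.

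Il2 itself, the ligand, was scarcely detected. Its 6 counts came from 5 of the 41 libraries, with no more than 2 in any library, and 12 of the 16 groups had none. The few counts were in the control line (1 library), line 2-14 (1 library), the GSI group (1 library) and the KYOT2 WWAA group (2 libraries). No Il2 count was seen in any of the 12 BioNICD1 libraries or in any of the 10 NICD1-ER libraries. A count of 0 allows up to 3 counts, which is 0.297 to 0.370 CPM over the depths of the BioNICD1 libraries and 0.288 to 0.694 CPM over those of the NICD1-ER samples. These limits cover counting error only. Il2 passed the filter on low counts in 0 of 17 comparisons, so no fold change is given for it.

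The 3 receptor chains behaved unlike each other. Il2ra was found in 36 libraries and moved over the widest range, from 0 to 502 CPM. Il2rb and Il2rg were found in all 41 libraries, and Il2rg never fell under 96.5 CPM.

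**Figure D1:**
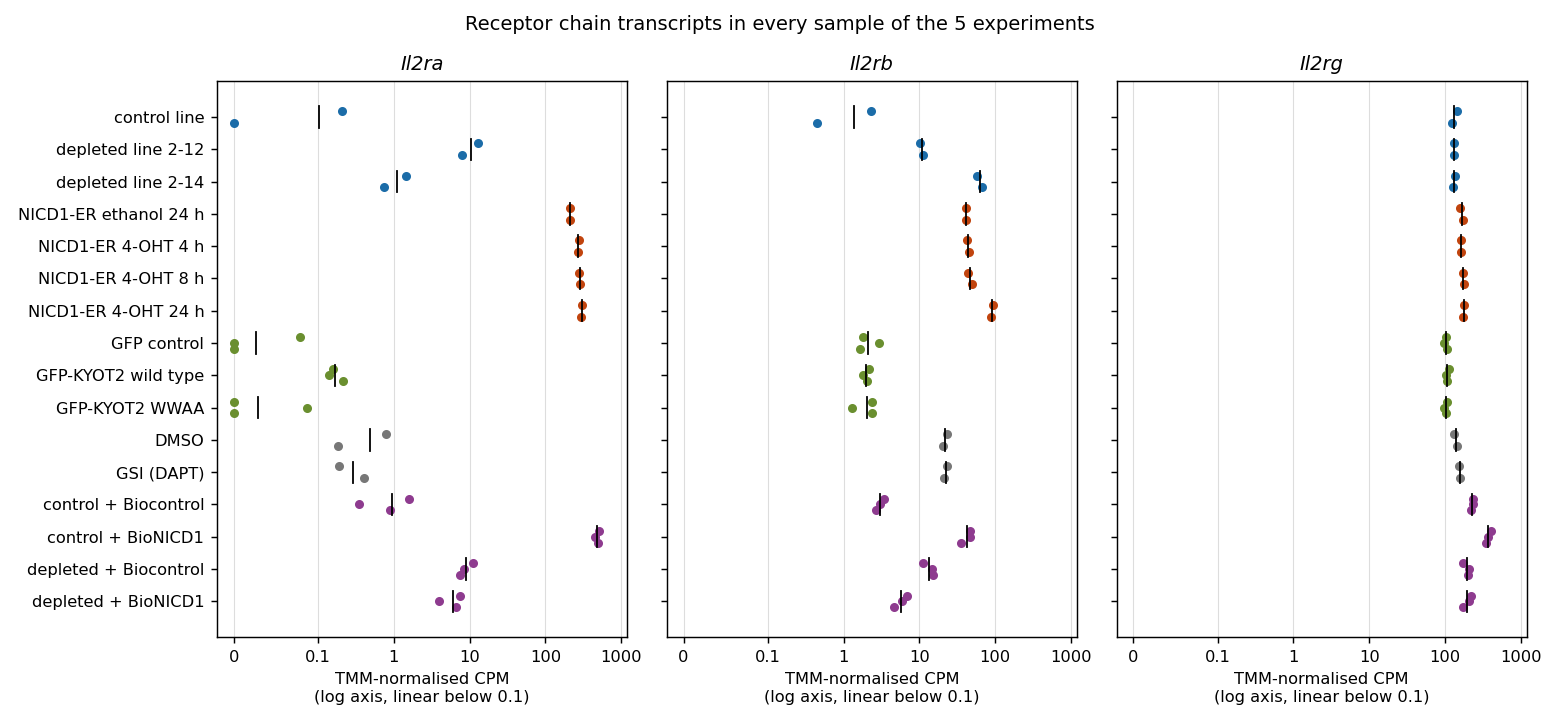
TMM-normalised CPM of Il2ra, Il2rb and Il2rg (x axes, logarithmic above 0.1 and linear below) in every sample of the 16 groups (y axis); points are samples, bars are group means and colours mark the 5 experiments. Il2ra runs from 0 to 502 CPM, Il2rb from 0.449 to 93.0 CPM and Il2rg from 96.5 to 399 CPM.

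Set in order by CPM of the library total, so that experiments could be placed side by side, Il2ra stood highest in control cells with BioNICD1, at 494 ± 33.8 (SD, n = 3). The NICD1-ER groups followed at 300.3 ± 4.90 (24 h), 282 ± 3.87 (8 h), 271 ± 4.73 (4 h) and 212 ± 1.56 CPM (ethanol; SD, n = 2 each). No neighbours among these top 5 groups overlapped, nor did the ethanol group overlap the next, line 2-12, at 10.7 ± 3.72 CPM. Line 2-12 overlapped depleted cells with Biocontrol, at 9.21 ± 1.30 CPM. The other 9 groups had means of 5.73 CPM or less, and 4 of them were under 0.2 CPM: the control line, GFP control and both KYOT2 groups. The NICD1-ER cells in ethanol were thus at over 200 CPM of Il2ra, whereas DMSO cells were at 0.488 ± 0.428 CPM (SD, n = 2). These experiments were not sequenced as 1 set, and no test was made between them.

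For Il2rb the order was led by NICD1-ER at 24 h (89.9 ± 3.16 CPM of the library total) and line 2-14 (63.5 ± 5.70 CPM; SD, n = 2 each), which did not overlap each other or the next group. NICD1-ER at 8 h and at 4 h both overlapped control cells with BioNICD1 (44.1 ± 8.86 CPM, SD, n = 3), which lay between them. The lowest were the 3 KYOT2 groups, at 2.01 to 2.11 CPM, and the control line at 1.35 ± 1.32 CPM, all of which overlapped. Il2rg had its highest mean in control cells with BioNICD1, at 382 ± 40.9 CPM (SD, n = 3), which overlapped no other group. Its next 3 groups were the others of the BioNICD1 experiment, at 192 to 222 CPM, and these overlapped each other. Depleted cells with BioNICD1, the lowest of these, also overlapped the next group, NICD1-ER at 24 h (174 ± 3.40 CPM, SD, n = 2).

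All 3 receptor chains rose with BioNICD1 in cells with RBPJ, and by very unequal amounts. These were 3 of the 3 members tested, in a comparison where 18.7% of the 11315 genes tested rose and 32.9% passed in either direction. This and every test below is edgeR's quasi-likelihood test within 1 experiment with Benjamini-Hochberg adjustment over all genes tested, called at an adjusted p under 0.05, and levels are TMM-normalised CPM.

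Il2ra, the alpha chain, had 0.345, 0.887 and 1.61 CPM in the control cells that carried Biocontrol, and 450, 495 and 502 CPM in those that carried BioNICD1. Every sample with BioNICD1 was far above every sample with the Biocontrol vector. The log2 fold change was 8.99 (SE 0.31, adjusted p = 4.74e-10), a 509-fold rise. The low side rests on few counts, and without Biocontrol replicate 3 the log2 fold change was 9.60. Il2rb, the beta chain, was at 2.66, 2.99 and 3.46 CPM with Biocontrol and at 34.9, 46.8 and 46.9 CPM with BioNICD1, with no overlap. Its log2 fold change was 3.81 (SE 0.20, adjusted p = 1.87e-08), or 14.1-fold. Il2rg, the common gamma chain, was at 221, 231 and 232 CPM with Biocontrol and at 351, 368 and 399 CPM with BioNICD1. These groups did not overlap either, but the rise was 1.63-fold (log2 0.71, SE 0.11, adjusted p = 3.03e-04).

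In RBPJ-depleted cells none of the chains rose with BioNICD1. Of the 3 members tested 1 passed, and it fell, where 1.45% of all genes tested fell and 4.14% passed in either direction. Il2ra was at 7.42, 8.34 and 11.0 CPM with Biocontrol and at 3.91, 6.55 and 7.45 CPM with BioNICD1, so the groups overlapped. The log2 fold change was -0.58 (SE 0.25, adjusted p = 0.228), or -0.49 (adjusted p = 0.226) without the 2 libraries that stood apart. Il2rb was at 11.2, 14.5 and 15.0 CPM with Biocontrol and at 4.65, 5.81 and 6.89 CPM with BioNICD1, without overlap. Il2rb fell by 1.23 on the log2 scale (SE 0.19, adjusted p = 0.00356). Fitted on these 2 groups alone, the Il2rb adjusted p was 0.112, and without the 2 libraries that stood apart it was 7.25e-04 at a log2 fold change of -1.22. Il2rg was at 174, 203 and 206 CPM and at 171, 205 and 218 CPM, with a log2 fold change of 0.02 (SE 0.11, adjusted p = 0.913), or 0.0466 without those libraries.

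The difference between these responses was tested directly as an interaction, the effect of BioNICD1 in depleted cells minus that in control cells, for which 13.3% of all genes tested passed with a negative value and 22.5% in either direction. All 3 members tested passed, each with a negative value. The interaction was -9.57 for Il2ra (SE 0.40, adjusted p = 1.29e-08), -5.04 for Il2rb (SE 0.27, adjusted p = 1.11e-07) and -0.69 for Il2rg (SE 0.15, adjusted p = 0.00778). Without the 2 libraries that stood apart it was -9.48, -5.03 and -0.66. Without Biocontrol replicate 3 of the control cells it was -10.19 for Il2ra.

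**Figure D2:**
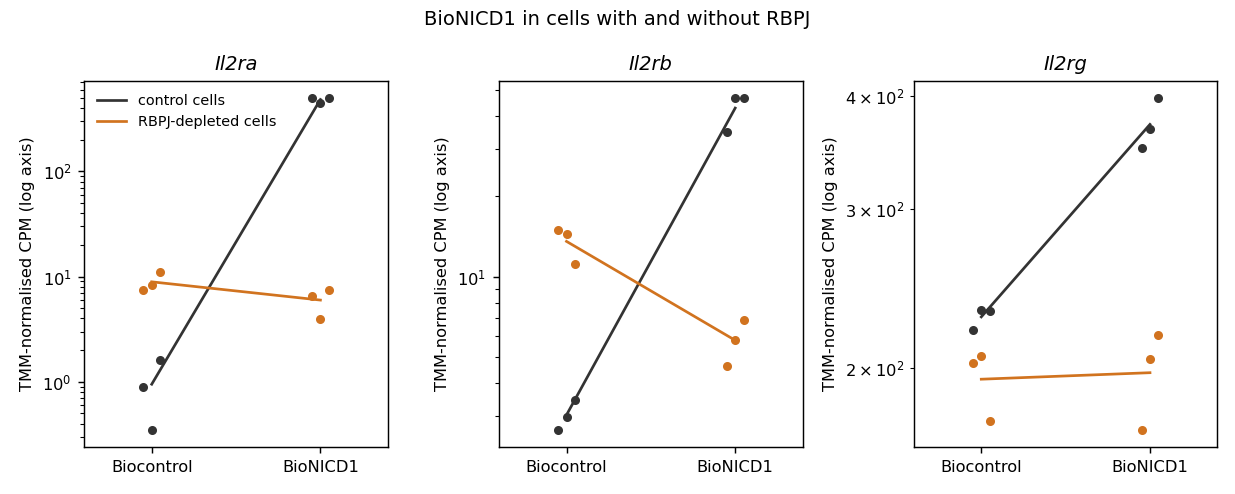
TMM-normalised CPM (y axes, logarithmic, each with its own range) of the 3 receptor chains with Biocontrol and with BioNICD1 (x axes); points are samples and lines join group means, dark for control cells and orange for RBPJ-depleted cells. The dark lines climb for all 3 genes, while the orange line falls for Il2rb and the orange points overlap for Il2ra and Il2rg.

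The same libraries also show depletion at each vector. With Biocontrol, depleted cells had more Il2ra and Il2rb than control cells: 2 of 3 members tested rose, where 21.7% of all genes tested rose and 42% passed in either direction. The rise was 9.35-fold for Il2ra (log2 3.23, SE 0.36, adjusted p = 1.90e-05) and 4.47-fold for Il2rb (log2 2.16, SE 0.21, adjusted p = 5.53e-06), and neither gene's groups overlapped. Without Biocontrol replicate 3 of the control cells the Il2ra log2 fold change was 3.86, and without the 2 libraries that stood apart it was 3.06. Without those 2 libraries the value was 2.27 for Il2rb. Il2rg had a log2 fold change of -0.23 (SE 0.11, adjusted p = 0.108), or -0.16 (adjusted p = 0.116) without them. With BioNICD1 the direction was the opposite for both chains. All 3 members fell, where 21.4% of all genes tested fell and 39.8% passed in either direction. The log2 fold changes were -6.34 for Il2ra (SE 0.25), -2.88 for Il2rb (SE 0.18) and -0.91 for Il2rg (SE 0.11), with adjusted p of 1.89e-09, 8.21e-08 and 3.05e-05. Without the 2 libraries they were -6.42, -2.75 and -0.81. These comparisons share samples with those of BioNICD1 above.

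Markers of other cells were counted beside these values. In control cells the summed natural killer markers were at 0 to 0.115 CPM with Biocontrol and at 2.09 to 2.42 CPM with BioNICD1, and all of the latter was Ncr1, while Klrb1c, Klre1 and Eomes were at 0 there. Ncr1, the marker receptor of these cells, was also the only one of that list tested. It passed the filter on low counts only through the control cells with BioNICD1. A rise there was thus fixed by the filter, and no p-value is given. The 4 summed myeloid markers were at 2.28 to 4.03 CPM with Biocontrol and at 6.10 to 7.31 CPM with BioNICD1. Of these, Itgam was at 4.86 to 6.26 CPM with BioNICD1, while Csf1r and Adgre1 did not exceed 0.0968 CPM. Itgam rose (log2 2.58) and Lyz2 fell (log2 -0.89). None of the 4 B cell markers entered the test. Of the 3 regulatory T cell markers tested 1 rose and 2 fell: Tnfrsf18 had a log2 fold change of 0.70, Foxp3 of -0.90 (SE 0.17, adjusted p = 0.00168) and Nt5e of -0.62. Of 8 T cell markers tested 5 rose and 1 fell, with Lck at 1.20, Thy1 at 0.57 and Cd2 at -0.65 on the log2 scale. In this comparison 18.7% of all genes tested rose and 32.9% passed in either direction. The summed T cell markers were at 1258 to 1360 CPM with Biocontrol and at 1744 to 1845 CPM with BioNICD1. With depletion under Biocontrol, where Il2ra and Il2rb rose, 2 of the 3 regulatory T cell markers tested fell, Tnfrsf18 with a log2 fold change of -1.43 and Foxp3 with -1.09. Their summed list was at 42.6 to 45.4 CPM in control cells and at 25.1 to 26.7 CPM in depleted cells. With this depletion 42% of all genes tested passed in either direction. Of 8 T cell markers tested 3 fell, near that share: Cd3d (log2 -1.50), Cd2 (-0.85) and Thy1 (-0.80). The summed T cell list was at 1051 to 1215 CPM in depleted cells. The part of these other genes in the results was not tested. In bulk samples such as these, fewer cells of a kind and less RNA per cell cannot be told apart.

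In the depletion experiment, loss of RBPJ without added NICD1 went with higher alpha and beta chain transcripts, and the gamma chain did not pass the test. Of the 3 members tested with both edited lines together, 2 rose, where 6.21% of the 11566 genes tested rose and 9.89% passed in either direction. These 2 members, Il2ra and Il2rb, passed the filter on low counts only through the edited lines. Their count is thus not independent of the filter, and the share of all genes is no measure of it. With the replicate number as a block, 4260 genes passed in place of 1144, and the same 2 members did. Raw counts show how little Il2ra there was to start with. The control line had 0 and 1 Il2ra counts, line 2-12 had 33 and 76, and line 2-14 had 3 and 9. Only line 2-12 carried Il2ra over the filter on low counts. Its rise in the tests that use that line is thus not independent of the filter. Per library total scaled by its TMM factor, both lines together had 42.4 times the control, with a 95% counting interval of 7.47 to 1688. The fitted log2 fold change was 4.40 (SE 0.87, adjusted p = 0.0278), and it did not pass without control replicate 1 (adjusted p = 0.114), control replicate 2 (0.0608), line 2-12 replicate 2 (0.0767) or line 2-14 replicate 2 (0.0982). Without control replicate 2 the control has no Il2ra count at all and no fold is given.

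The alpha chain passed in line 2-12 and not in line 2-14, while the beta chain passed in both. In line 2-12 Il2ra was at 8.01 and 13.0 CPM, against 0 and 0.207 CPM in the control line, and the fitted log2 fold change was 5.98 (SE 0.78, adjusted p = 0.00831). The ratio of counts was 77.2, with an interval of 13.6 to 3078. Without control replicate 1 its adjusted p was 0.0536. In line 2-14 Il2ra was at 0.736 and 1.47 CPM, a log2 fold change of 2.82 (SE 1.07, adjusted p = 0.183). Its ratio of counts was 8.32, with an interval of 1.23 to 355.5. Il2rb was at 0.449 and 2.27 CPM in the control line, at 10.2 and 11.2 CPM in line 2-12 and at 58.3 and 67.4 CPM in line 2-14. No 2 of these 3 groups overlapped. The control line did not carry Il2rb over the filter on low counts, while either edited line did. The Il2rb rise with both lines together is thus not independent of the filter. The Il2rb log2 fold change was 2.67 in line 2-12 (SE 0.42, adjusted p = 0.0165) and 5.22 in line 2-14 (SE 0.37, adjusted p = 0.00119). The Il2rb call in line 2-12 did not pass without line 2-12 replicate 1 (adjusted p = 0.0593) or replicate 2 (0.0516). With both lines together Il2rb rose by 3.95 on the log2 scale (SE 0.37, adjusted p = 0.00199). Control replicate 2 sets the size of these values: without it, when 1 count stands for the control, the log2 fold changes were 4.48 in line 2-12, 7.04 in line 2-14 and 5.76 together.

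In each line alone 2 of 3 members (line 2-12) and 1 of 3 members (line 2-14) passed, where 6.96% and 5.05% of all genes tested did. With the replicate number as a block 3672 and 3243 genes passed in place of 805 and 584, and between the lines 282 in place of 56. Both comparisons use the same 2 control samples. Set against each other, the lines differed in Il2rb by -2.55 (line 2-12 minus line 2-14, SE 0.27, adjusted p = 0.0172), 1 of 3 members where 0.484% of all genes tested passed. Leaving out any 1 of the 4 libraries of these lines moved that adjusted p to between 0.0689 and 0.174: 0.115 without replicate 1 and 0.174 without replicate 2 of line 2-12, 0.0689 without replicate 1 and 0.0730 without replicate 2 of line 2-14. Il2ra leaned the other way, with a difference of 3.17 (SE 0.50, adjusted p = 0.0748), and it passed under DESeq2 (0.0449), without the low-count filter (1.72e-07) and with the replicate number as a block (0.00122). Il2rg was at 122 and 143 CPM in the control line, 131 and 132 CPM in line 2-12 and 129 and 134 CPM in line 2-14. Its log2 fold change was -0.02 in each line (SE 0.12 in each), with adjusted p of 0.933 and 0.935. The summed myeloid markers were at 3.93 to 4.61 CPM in line 2-12, at 0.981 to 1.14 CPM in line 2-14 and at 0.449 to 1.03 CPM in the control line. In line 2-12 they were mostly Itgam, with Csf1r at up to 0.728 CPM and Adgre1 at up to 0.243 CPM, and their part in the Il2ra values was not tested.

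In the NICD1-ER experiment the alpha chain moved early and little, and the beta chain moved late and more. At 4 h and 8 h, 1 of 3 members tested passed, where 6.25% and 10.4% of the 11808 genes tested did, and at 24 h 2 of 3 passed, where 10.8% did. All 3 time points share the same ethanol samples, which had 24 h of treatment. Libraries given 4-OHT for 24 h differed by less than sampling noise but were counted as separate samples, so their p-values may be too small.

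Il2ra was at 211 and 213 CPM in ethanol, at 266 and 277 CPM after 4 h, at 280 and 284 CPM after 8 h and at 297 and 306 CPM after 24 h. No group overlapped the next. The log2 fold change was 0.35 at 4 h (SE 0.05, adjusted p = 1.15e-04), 0.41 at 8 h (SE 0.05, adjusted p = 1.22e-05) and 0.51 at 24 h (SE 0.05, adjusted p = 7.57e-07), the last a 1.42-fold rise. The difference between 24 h and 4 h was 0.16 (SE 0.04, adjusted p = 0.0252). It did not pass under DESeq2 (0.391), with the 2 groups fitted alone (0.0564), without the summed replicates 1 and 2 of 4 h (0.174), or without replicate 2 (0.0860) or replicate 3 (0.228) of 24 h.

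Il2rb was at 41.4 and 41.6 CPM in ethanol, at 42.7 and 44.5 CPM after 4 h and at 44.0 and 50.0 CPM after 8 h. Its log2 fold change was 0.08 at 4 h (SE 0.09, adjusted p = 0.688) and 0.20 at 8 h (SE 0.09, adjusted p = 0.157). After 24 h it was at 87.8 and 93.0 CPM, above every other sample of the experiment. That rise was 2.18-fold (log2 1.12, SE 0.08, adjusted p = 4.19e-08), and the difference between 24 h and 4 h was 1.04 (SE 0.07, adjusted p = 4.68e-08), 1 of the 2 members that passed where 13.4% of all genes tested did. Il2rg was at 160 and 172 CPM in ethanol, at 164 and 165 CPM after 4 h, and at 171 to 178 CPM after 8 h and 24 h. It did not pass at any time, with log2 fold changes of -0.01 at 4 h and 0.08 at 8 h and 24 h (SE 0.05 each).

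**Figure D3:**
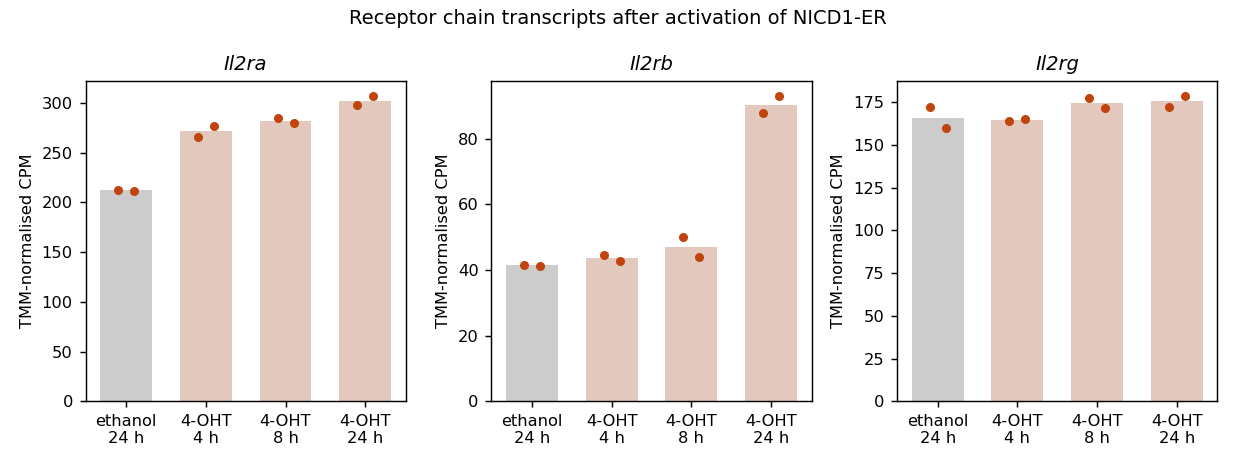
TMM-normalised CPM (y axes, from 0) of the 3 receptor chains in NICD1-ER cells after ethanol or 4-OHT (x axes); bars are group means and points are samples, 2 in each group. Il2ra steps up by 4 h, Il2rb stays at 41.4 to 50.0 CPM until 8 h and reaches 87.8 to 93.0 CPM at 24 h, and Il2rg lies between 160 and 178 CPM.

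With KYOT2, the RBPJ-binding protein, none of the receptor chains tested passed, and with the gamma-secretase inhibitor only Il2rg did. Il2ra had too few counts in both experiments to enter the test. It had 1 count over the 3 GFP control samples, 6 with wild-type KYOT2 and 1 with the WWAA mutant. The ratio of wild type to GFP was 5.48, with a counting interval of 0.665 to 252 that spans 1. Il2rb was at 1.64, 1.81 and 2.92 CPM with GFP, at 1.81, 2.01 and 2.15 CPM with wild-type KYOT2 and at 1.30, 2.36 and 2.38 CPM with WWAA, and the groups overlapped. Of the 2 members tested, 0 passed in any of the 3 KYOT2 comparisons by edgeR, where 0.888% (wild type against GFP), 0.0897% (WWAA against GFP) and 1.87% (wild type against WWAA) of the 11150 genes tested did. Their smallest unadjusted p was 0.304, so 0 had one under 0.05, and 0 passed under DESeq2. The largest log2 fold change among them was -0.11 for Il2rb with wild-type KYOT2 (SE 0.29, adjusted p = 0.938).

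With the inhibitor, 1 of the 2 members tested passed, where 20.7% of the 11634 genes tested did. Libraries treated with GSI differed by less than sampling noise but were counted as separate samples, so these p-values may be too small. Il2rg was at 132 and 144 CPM in DMSO and at 154 and 159 CPM with GSI, without overlap, a rise of 0.19 on the log2 scale (SE 0.05, adjusted p = 0.00654). It did not pass under DESeq2 (adjusted p = 0.448), without GSI replicate 1 (0.133) or without DMSO replicate 2 (0.209). Il2rb was at 20.3 and 23.0 CPM in DMSO and at 21.1 and 23.1 CPM with GSI (log2 0.03, SE 0.12, adjusted p = 0.915). Il2ra had 6 counts over both DMSO samples and 3 over both GSI samples, a ratio of 1.78 with an interval of 0.381 to 11.0.

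**Figure D4:**
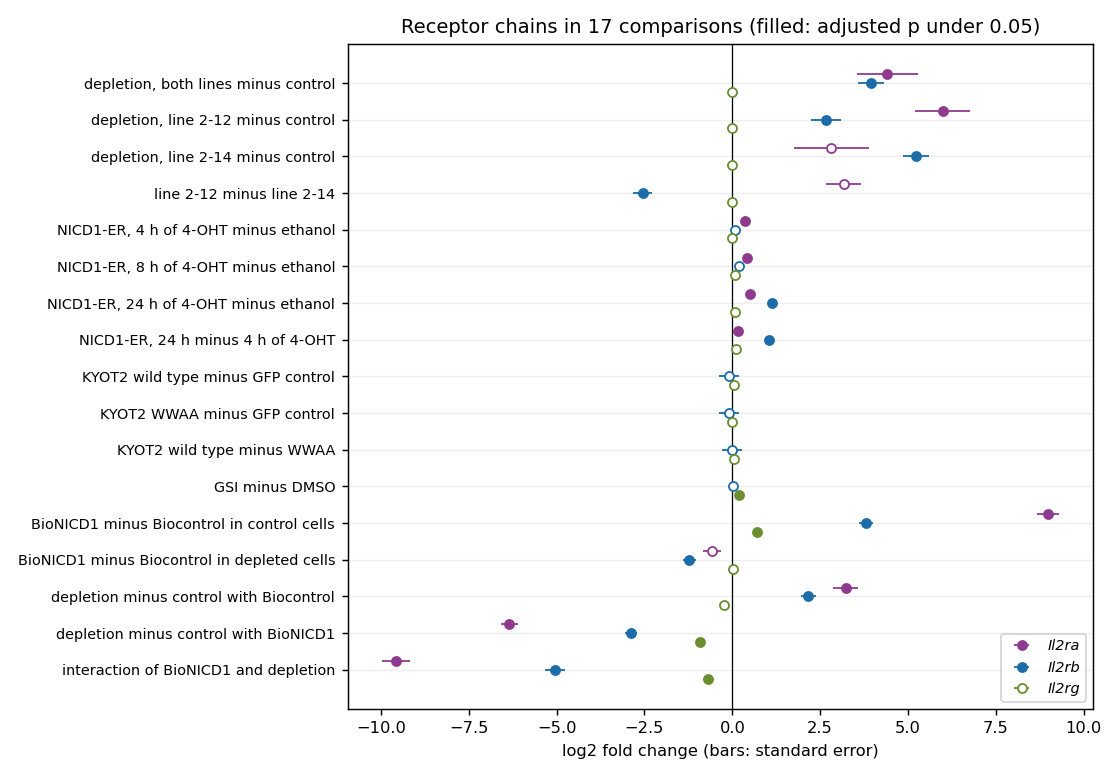
Log2 fold change (x axis) of the 3 receptor chains in each of the 17 comparisons (y axis), with bars of 1 standard error; filled points passed at an adjusted p under 0.05, and Il2ra is not drawn in the 4 comparisons where it was not tested. Il2ra runs from -9.57 to 8.99 and Il2rb from -5.04 to 5.22, while every Il2rg value lies between -0.91 and 0.71.

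The genes around the receptor were followed as lists of genes with known roles in the pathway. These lists were chosen with earlier results of these data known, so their counts beside the share of all genes are descriptions. Of the other cytokines of the common gamma family (Il4, Il7, Il9, Il15 and Il21), 0 of 5 entered the test in the depletion, KYOT2, inhibitor and BioNICD1 experiments and 1 of 5 in the NICD1-ER experiment, where 0 passed at 24 h by edgeR, by DESeq2 or at an unadjusted p under 0.05.

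Among the other receptor chains of the family (Il4ra, Il7r, Il9r, Il15ra and Il21r), 3 of the 4 tested rose with BioNICD1 in control cells and 0 fell, where 18.7% of all genes tested rose and 32.9% passed in either direction. Without the 2 depleted libraries that stood apart 3 rose and 1 fell. Their median log2 fold change was 2.42, against 0.01 over all genes tested. Il15ra, the private alpha chain of the IL-15 receptor that works with the Il2rb product, went from 0.278 ± 0.169 to 6.71 ± 0.152 CPM (SD, n = 3; log2 4.50, SE 0.37, adjusted p = 1.25e-06). Il21r, which binds IL-21, rose by 2.59 (SE 0.43, adjusted p = 5.72e-04) and Il4ra, which binds IL-4, by 2.26 (SE 0.14, adjusted p = 1.36e-07) on the log2 scale. In depleted cells 0 of the 4 passed by edgeR (3 had an unadjusted p under 0.05) and 0 by DESeq2, and the interaction passed for 3 of 4, all negative, where 13.3% of all genes tested passed with a negative value: Il15ra at -4.50, Il4ra at -2.67 and Il21r at -1.99. Il15ra also differed with depletion alone. It had 0 counts in both control samples of the depletion experiment, which allows up to 1.26 CPM, and was at 4.74 to 5.98 CPM in the 4 samples of the edited lines. With Biocontrol it was at 6.38 ± 0.563 CPM in depleted cells (SD, n = 3; log2 4.43 against control cells, SE 0.37, adjusted p = 1.62e-06). In the depletion experiment 2 of the 3 tested rose with both lines together, Il15ra and Il4ra, where 6.21% of all genes tested rose. Il15ra passed the filter on low counts there only through the edited lines, so its rise was fixed by the filter. With Biocontrol 3 of 4 rose and 1 fell with depletion, where 42% of all genes tested passed in either direction. In NICD1-ER cells at 24 h 2 of 3 rose (1 by DESeq2), where 10.8% of all genes tested passed in either direction, Il4ra by 1.31 (SE 0.23, adjusted p = 8.58e-04) and Il9r by 0.23 (SE 0.05, adjusted p = 0.00815).

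Of 5 kinases and STAT factors below the receptor (Jak1, Jak3, Stat3, Stat5a and Stat5b), 3 rose and 0 fell with BioNICD1 in control cells, where 18.7% of all genes tested rose, with a median log2 fold change of 0.44 against 0.01 over all genes tested. Without the 2 depleted libraries that stood apart 4 rose. Jak3, the kinase bound by the common gamma chain, rose by 1.71 (SE 0.19, adjusted p = 2.26e-05), Stat3 by 1.22 (SE 0.08, adjusted p = 1.11e-07) and Jak1, the kinase bound by the beta chain, by 0.44 (SE 0.10, adjusted p = 0.00391). The STAT5 genes themselves did not pass, with 0.17 for Stat5a (SE 0.14, adjusted p = 0.346) and 0.33 for Stat5b (SE 0.15, adjusted p = 0.107). In depleted cells 0 of 5 passed by edgeR, with 1 at an unadjusted p under 0.05, and 0 by DESeq2. The interaction passed for 3 of 5, all negative: Jak3 at -2.09, Stat3 at -1.38 and Jak1 at -0.43. Over all genes tested 13.3% passed with a negative interaction in the fit of all libraries. Without those 2 libraries, where more genes passed, 5 of 5 of this list did. With depletion in both lines 0 of 5 passed by edgeR, with 2 at an unadjusted p under 0.05, and 0 by DESeq2, while 2 rose with the replicate number as a block. With depletion under Biocontrol 2 of 5 rose by edgeR and by DESeq2, Jak1 by 0.44 (adjusted p = 0.00300 by edgeR) and Stat3 by 0.45 (4.54e-04), where 21.7% of all genes tested rose. At 4 h and at 8 h of NICD1-ER 0 of 5 rose and 1 fell, Jak3, with log2 fold changes of -0.19 and -0.24, and 0 passed by DESeq2. At 24 h 3 of 5 rose, Stat3 by 0.34 (SE 0.05, adjusted p = 6.08e-05), Stat5b by 0.29 (SE 0.06, adjusted p = 0.00198) and Jak3 by 0.24 (SE 0.05, adjusted p = 0.00194), where 10.8% of all genes tested passed in either direction, and 1 rose by DESeq2.

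Of 12 feedback and target genes of STAT5, 8 rose and 0 fell with BioNICD1 in control cells, where 18.7% of all genes tested rose, with a median log2 fold change of 0.88. Without the 2 depleted libraries that stood apart 9 rose. The suppressors of cytokine signalling led: Socs3 rose by 3.82 (SE 0.25, adjusted p = 1.94e-07) and Socs1 by 3.81 (SE 0.46, adjusted p = 4.42e-05). Ccnd3, which encodes cyclin D3, rose by 1.56 (SE 0.28, adjusted p = 9.43e-04). In depleted cells 0 of the 12 passed by edgeR, with 3 at an unadjusted p under 0.05, and 1 rose by DESeq2 and 1 by edgeR without those 2 libraries. The interaction passed for 8 of 12 (9 without them), all negative, where 13.3% of all genes tested passed with a negative value. With depletion under Biocontrol 6 rose and 2 fell, where 42% of all genes tested passed in either direction. With depletion in both lines, where 6.21% of all genes tested rose, 2 of 12 rose, Bcl2, which blocks cell death, by 2.99 (SE 0.14, adjusted p = 1.93e-04) and Socs1 by 1.63 (SE 0.18, adjusted p = 0.00342), and with the block 4 rose and 1 fell. At 4 h of NICD1-ER 0 rose and 2 fell and at 8 h 0 rose and 4 fell, where 6.25% and 10.4% of all genes tested passed in either direction. At 24 h 4 rose and 3 fell (1 and 2 by DESeq2), where 10.8% did. Socs3 rose by 2.42 (SE 0.26, adjusted p = 5.72e-06), whereas Bcl2 fell by 0.55 (SE 0.06, adjusted p = 2.36e-06). Bcl2 thus moved in opposite directions in those comparisons.

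Of 11 transcription factors that act on the Il2 promoter, 4 rose and 0 fell with BioNICD1 in control cells, where 18.7% of all genes tested rose and 32.9% passed in either direction, so the share of the list that passed was near that of all genes. The median log2 fold change was 0.12. Nfatc2 rose by 1.34 (SE 0.19, adjusted p = 1.81e-04), Junb by 1.07 (SE 0.27, adjusted p = 0.00937) and Nfatc1 by 0.65 (SE 0.10, adjusted p = 3.65e-04), while Il2 stayed at 0 counts in those 3 libraries. In depleted cells 0 rose and 2 fell, where 1.45% of all genes tested fell, Fos by 0.91 (SE 0.13, adjusted p = 0.00308) and Jun by 0.62 (SE 0.16, adjusted p = 0.0472). With depletion in both lines Nfatc2 rose by 1.60 (SE 0.20, adjusted p = 0.00619) and Nfatc3 by 0.54 (SE 0.11, adjusted p = 0.0303), and with the block 2 rose and 1 fell. With depletion under Biocontrol 3 rose and 1 fell, near the 42% of all genes tested that passed in either direction. The interaction passed for 6 of 11, all negative, where 13.3% of all genes tested passed with a negative value. With wild-type KYOT2 against GFP 0 genes of these lists passed by edgeR, and 0 by DESeq2. By edgeR 2 kinases and STAT factors, 1 STAT5 target and 1 Il2 promoter factor had an unadjusted p under 0.05. With the replicate number as a block, where more genes passed, 1 kinase or STAT factor and 1 Il2 promoter factor rose. Without the block the named genes of these lists had log2 fold changes between -0.02 (Jak1) and 0.19 (Jak3, adjusted p = 0.299 by edgeR), where tested. Between wild-type KYOT2 and WWAA, where 1.87% of all genes tested passed, 1 kinase or STAT factor (Stat3, log2 0.25) and 1 Il2 promoter factor (Fos, log2 0.47) passed, both higher with the wild type, by edgeR, and 1 of each list by DESeq2.

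**Figure D5:**
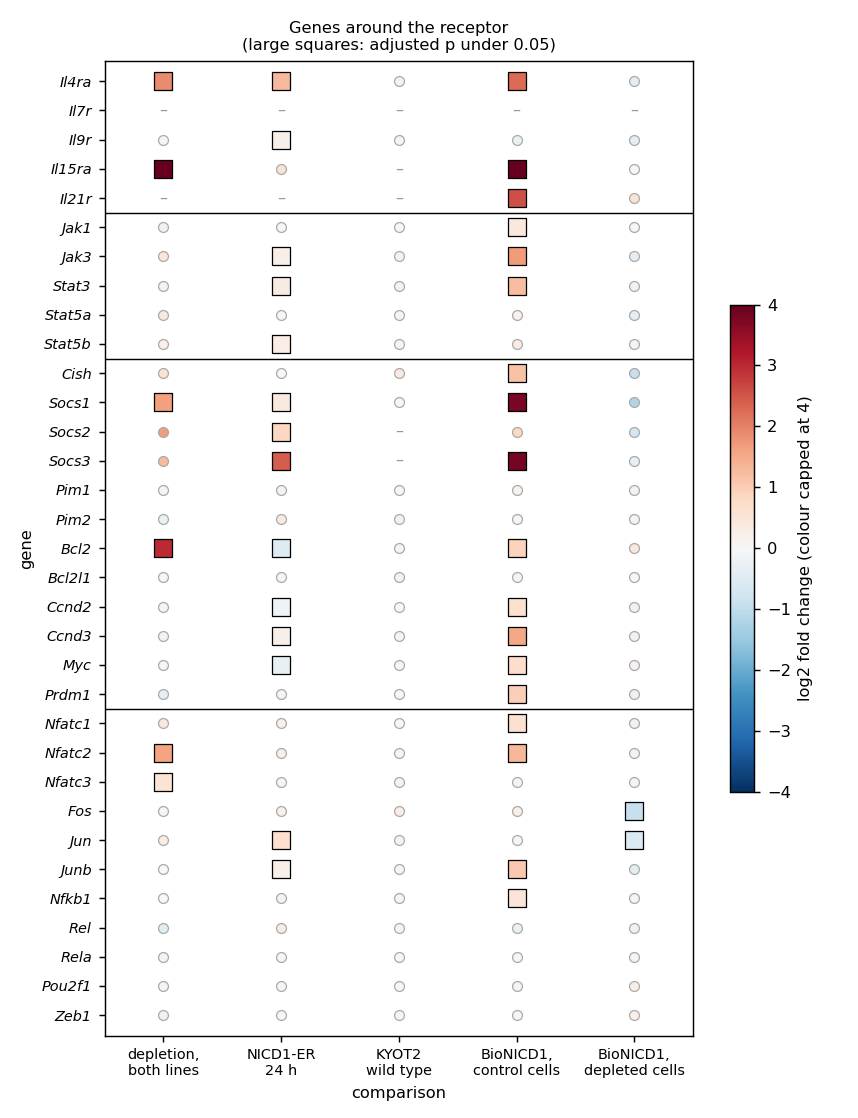
Log2 fold change (colour, capped at 4) of genes around the receptor (y axis, in blocks of receptor chains, kinases and STAT factors, STAT5 targets and Il2 promoter factors) in 5 comparisons (x axis); large squares passed at an adjusted p under 0.05, small circles did not, and dashes were not tested. The column of BioNICD1 in control cells holds 18 large squares, all of them red, and that of depleted cells holds 2, both blue; Il15ra after depletion is fitted against control samples at 0.

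The genes whose group means were most like those of a receptor chain were sought over all 16 groups, after each experiment's own mean was taken away. For Il2ra these were Lgals9 (Pearson r = 0.981), which encodes galectin-9, Irgm1 (0.958), an immunity-related GTPase, and Irf1 (0.953), an interferon regulatory factor. In cells with RBPJ, Irgm1 stood at 17.7 CPM for Biocontrol and 412 CPM for BioNICD1, and in depleted cells at 24.4 and 23.9 CPM. For Il2rb they were Msra (0.925), Ctu1 (0.920) and Nxpe3 (0.914). Msra, a methionine sulfoxide reductase, was at 9.03 CPM in the control line, 24.7 CPM in line 2-12 and 61.7 CPM in line 2-14. For Il2rg they were 1110038F14Rik (0.970), Evl (0.967) and Parp11 (0.965). These values are descriptions over 16 group means that share libraries and depths within each experiment.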

How the data were processed

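RNA was sequenced in 43 labelled libraries of a hybridoma T cell line, prepared with a stranded total RNA kit or others, per the labels' protocols. The authors deposited raw read counts per gene symbol in 1 table of 65 columns. Of these, 41 were matched to labelled samples by heading and 24 columns were not used. Replicate 1 of both NICD1-ER 24 h groups is not analysed here, because 1 heading stands over 2 columns. The submitters' processing notes name TopHat2 2.1.1, Picard, deepTools and build mm9, while the counting tool, its use of strand and its gene models are not given in the sources used here.

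Each experiment was fitted alone with edgeR 4.0.16 (TMM scaling, filterByExpr, 1 mean per group, quasi-likelihood F-test, prior count 0.125), with p-values adjusted by Benjamini-Hochberg over all genes tested and called under 0.05. The standard error is the log2 fold change divided by the root of F. Counting intervals are 95% exact, and ratios of counts use library totals scaled by TMM. Alternatives were DESeq2 1.42.0, RLE factors, no filter, only the groups compared, a replicate block, unsummed libraries and leaving out each sample. Same-numbered samples had deviations that correlated at 0.43 to 0.61 in the depletion experiment (all 6 pairs over 3 groups of 2). In a group of 2 the deviations mirror each other, so these pairs are not independent. The numbers were taken to pair samples there. The main depletion fit still has no block, and the blocked value is given where it changes a call. Same-numbered samples correlated at -0.45 to 0.55 for BioNICD1, 0.03 for the inhibitor and -0.01 to 0.17 for NICD1-ER, so there the numbers were not taken to pair samples. For KYOT2 same-numbered samples correlated at 0.04 to 0.41 and others at -0.29 to 0.16, so the numbers may pair samples there. The main KYOT2 fit has no block, and the counts of genes called with the block are given below. The script was tested on simulated data. The members and lists were chosen with earlier results of these data known. Named genes were the members and, of each list, up to 3 with the largest change among those that passed with BioNICD1 in control cells, and the 3 genes most like each chain by Pearson r among those with a mean of 1 CPM or more in a group of every experiment (over 16 group means of log2 of CPM plus 0.5, less the experiment's mean). Cd3d, Fos, Jun, Bcl2, Nfatc3, Il9r, Stat5a and Stat5b, where named, were picked after their values were seen. Deposited mm9 region files were not used here, since no annotation of that build was at hand. The RefSeq table held no Il2rb entry. Some genes that belong to these lists are not reported here.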

Additional observations from a re-analysis of the deposited data

Results flagged for a closer look

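The response to BioNICD1 differed between control and RBPJ-depleted cells for all 3 receptor chains tested, by the test of the difference itself (edgeR, adjusted over all genes tested): by -9.57 for Il2ra, -5.04 for Il2rb and -0.69 for Il2rg on the log2 scale. In the control cells 3 of 3 samples with BioNICD1 were above all 3 with Biocontrol for each gene. In the depleted cells 3 of 3 samples with BioNICD1 were below all 3 with Biocontrol for Il2rb, and the groups overlapped for Il2ra and Il2rg.

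The edited lines 2-12 and 2-14 differed in Il2rb by -2.55 on the log2 scale, with both samples of line 2-14 above both of line 2-12.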

How the results depend on the processing

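Of 47 tests of a receptor chain, 25 passed, and 18 of these passed under every alternative run. Over all alternatives the 25 gave 283 values, all with the same direction, and 263 still passed. Under DESeq2 the Il2ra difference between 24 h and 4 h of 4-OHT was 0.15 (adjusted p = 0.391) and the Il2rg change with GSI 0.18 (0.448), and neither passed, while the Il2ra difference between lines 2-12 and 2-14 was 3.21 and passed (0.0449). That Il2ra difference also passed without the low-count filter, at 3.16 (1.72e-07). Fitted on the compared groups alone, which leaves fewer samples, the Il2ra difference between 24 h and 4 h was 0.16 (0.0564) and the Il2rb change with BioNICD1 in depleted cells was -1.23 (0.112). Without the filter the Il2rg change at 4 h of 4-OHT was 0.0019 (adjusted p = 1), the other side of 0. The cause was not tested.

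With the replicate block the Il2ra difference between the edited lines was 3.20 and passed (adjusted p = 0.00122). The block changed no other call of a receptor chain. It moved the counts of genes called to 4260 (both lines), 3672 (line 2-12), 3243 (line 2-14) and 282 (between lines), and for KYOT2 from 99 to 320 (wild type), 10 to 67 (WWAA) and 208 to 567 (wild type against WWAA).

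Leaving out 1 sample gave ranges of 3.94 to 6.99 (Il2ra, both lines), 5.52 to 8.58 (Il2ra, line 2-12), 2.22 to 4.48 (Il2rb, line 2-12), -2.66 to -2.45 (Il2rb between lines), 0.13 to 0.18 (Il2ra, 24 h against 4 h) and 0.12 to 0.25 (Il2rg, GSI), each with at least 1 fit that did not pass. The upper ends for Il2ra come from the fit without control replicate 2, whose control has no Il2ra count, so no fold can be read from them. Values that never passed crossed 0: Il2rg from -0.13 to 0.10 in both lines, in line 2-12 and in line 2-14, from -0.0334 to 0.0319 between lines, from -0.0667 to 0.0433 at 4 h of 4-OHT, from -0.0412 to 0.0370 with WWAA and from -0.0559 to 0.12 with BioNICD1 in depleted cells, and Il2rb from -0.24 to 0.19 with KYOT2 wild type, from -0.23 to 0.21 with WWAA, from -0.26 to 0.12 between them and from -0.0485 to 0.13 with GSI. Where this leaves 1 sample in a group, that sample is assumed to vary like the others.

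Counts of genes called moved elsewhere too. DESeq2 called 210, 408, 591 and 433 genes in the NICD1-ER comparisons (4 h, 8 h, 24 h and 24 h against 4 h) where edgeR called 738, 1225, 1276 and 1584, and 605 against 2414 with GSI, 109 against 56 between lines, 22 against 10 with WWAA and 758 against 469 with BioNICD1 in depleted cells. Without the filter 2671, 2126, 1870 and 302 genes were called in the depletion comparisons and 262, 66 and 395 in those of KYOT2. With the compared groups alone the counts were 486 (line 2-12), 161, 6 and 112 (KYOT2), 5847 (BioNICD1 in control cells, against 3723) and 4 (in depleted cells). Each library as its own sample with the block gave 1223 genes at 4 h. Without the 2 depleted libraries that stood apart, chosen after seeing the data, 5882, 1285 and 4665 genes were called for BioNICD1 in control cells, in depleted cells and the interaction (2548 with them), and every call of a receptor chain was the same. Depth limits Il2 most, and Il2ra in the control line, KYOT2 and inhibitor samples.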
